A study of Homo sapiens with 18 samples.

Results

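The canonical Notch ligands JAG1, JAG2, DLL1, DLL3 and DLL4 and the Notch receptors NOTCH1, NOTCH2, NOTCH3 and NOTCH4 were followed as 9 genes, taken by gene symbol from the 21411 genes measured. RNA was sequenced from spheroids of MDA-MB-231, an established human triple-negative breast cancer (TNBC) cell line with mesenchymal features, grown in Matrigel for 7 days from 50000 cells per well. There were 18 libraries, 3 from each of 6 conditions. Jag1WT were the unedited cells. Jag1KO were cells in which JAG1 had been edited with Cas9, used as a mixture of clones grown from single cells. Jag1KO + rescue cells were Jag1KO cells carrying a plasmid with JAG1 cDNA and Jag1KO + ctrl cells carried the empty plasmid, and both plasmid lines had been kept in G418. siCtrl cells were unedited cells given a nontargeting siRNA before seeding, and siJag1 cells were unedited cells given siRNAs against JAG1. The labels call the replicates biological and do not say whether they were separate cultures, so the p-values measure the spread between these libraries. The comparisons asked which of the ligands and receptors the cells expressed, and whether any other ligand or receptor changed in level when JAG1 was lowered or restored.

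Notch signaling passes between neighboring cells. A ligand on one cell binds a receptor on the next, ADAM proteases and then gamma-secretase cut the receptor, and its freed intracellular domain enters the nucleus, where it joins the DNA-binding protein RBPJ and MAML coactivators to switch on genes such as HES1. In breast cancer the pathway is best known for its part in stem-like and invasive cell states, and Jagged1, the protein of JAG1, for signaling between tumor cells and their surroundings.

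The exon of JAG1 aimed at in the knockout is shown because the 3 conditions Jag1KO, Jag1KO + rescue and Jag1KO + ctrl all descend from cells edited there. JAG1 lies on the minus strand at chr20:10637684-10673999 (hg38, GENCODE 44) and its main transcript has 26 exons. The guide RNA of the knockout was directed at exon 2, of 306 bases at chr20:10672701-10673006. The first 300 of them, at chr20:10672707-10673006 in hg38, read as follows on the coding strand. No letter is in capitals, because the guide RNA, whose sequence the study's authors give, was not placed on the exon here.
JAG1 exon 2: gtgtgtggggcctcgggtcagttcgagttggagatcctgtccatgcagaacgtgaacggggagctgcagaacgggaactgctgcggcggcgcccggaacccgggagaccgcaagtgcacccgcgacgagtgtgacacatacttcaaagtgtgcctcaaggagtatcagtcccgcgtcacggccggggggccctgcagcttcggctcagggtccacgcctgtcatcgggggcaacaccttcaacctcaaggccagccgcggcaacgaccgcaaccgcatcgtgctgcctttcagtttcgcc
Counts were made for whole genes, so reads from an edited transcript, from an intact one and from the plasmid cDNA all count as JAG1.

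Between 10330581 and 18327890 reads per library were counted on genes. Levels are given as CPM, the share of a library's counts scaled to be comparable between libraries, and 1 read was worth 0.0541 to 0.0955 CPM. The mesenchymal and basal markers VIM, CD44, EGFR and CAV1 were between 127 and 4946 CPM in every library. ESR1, which defines estrogen receptor-positive cells, and the fibroblast, endothelial and leukocyte genes DCN, LUM, CDH5, PTPRC and CD3E were at or below 0.273 CPM. Among the other markers looked at, CD68 (88.9 to 209 CPM), ERBB2 (32.5 to 60.0 CPM), GATA3 (5.25 to 11.5 CPM) and EPCAM (5.18 to 8.99 CPM) were above 1 CPM in all 18 libraries, PECAM1 in 17, FOXA1 in 10, PDGFRB in 3 and PGR and CDH1 in 1 each. The mean log2(CPM + 1) of 97 genes of the S and G2/M phases ranged from 4.10 to 6.09, and the 5 libraries above 5.5 were replicates 2 and 3 of Jag1KO, 1 and 2 of Jag1KO + ctrl and 2 of siJag1.

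With 1 CPM in at least 2 of 3 libraries as the limit for calling a gene expressed in a condition, JAG1, NOTCH1 and NOTCH2 were expressed in all 6 conditions and JAG2 in 5. NOTCH4 was expressed in 3 conditions, the 3 derived from the knockout, and DLL4 in 1, Jag1KO + ctrl. DLL1, DLL3 and NOTCH3 were expressed in 0 of the 6. Averaged over the 18 libraries, NOTCH2 (430 CPM) was at or above 97.4% of the 12803 genes found at more than 1 CPM in 9 or more libraries, JAG1 (352 CPM) at or above 96.6% and NOTCH1 (60.5 CPM) at or above 71.8%. JAG2 (1.47 CPM) and NOTCH4 (1.08 CPM) stood at the bottom of that range, at 3.24% and 0.656%. Per kb of gene model, which allows genes to be set side by side, the mean levels were 58.8 CPM for JAG1, 34.7 for NOTCH2 and 6.51 for NOTCH1, then 0.251 for JAG2, 0.198 for DLL4, 0.160 for NOTCH4, 0.0494 for NOTCH3, 0.0247 for DLL1 and 0.00263 for DLL3. On this scale the 9 libraries with less JAG1 had 18.4 to 34.2 CPM of it per kb. That was below the NOTCH2 level of the same library except in Jag1KO replicate 2 (34.2 against 33.4) and siJag1 replicate 2 (33.8 against 30.6), while the 9 libraries with more JAG1 had 72.3 to 109.7. The last 6 genes of the order are set by few reads, and the ranges over libraries of neighbors among them overlapped.

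**Figure D1:**
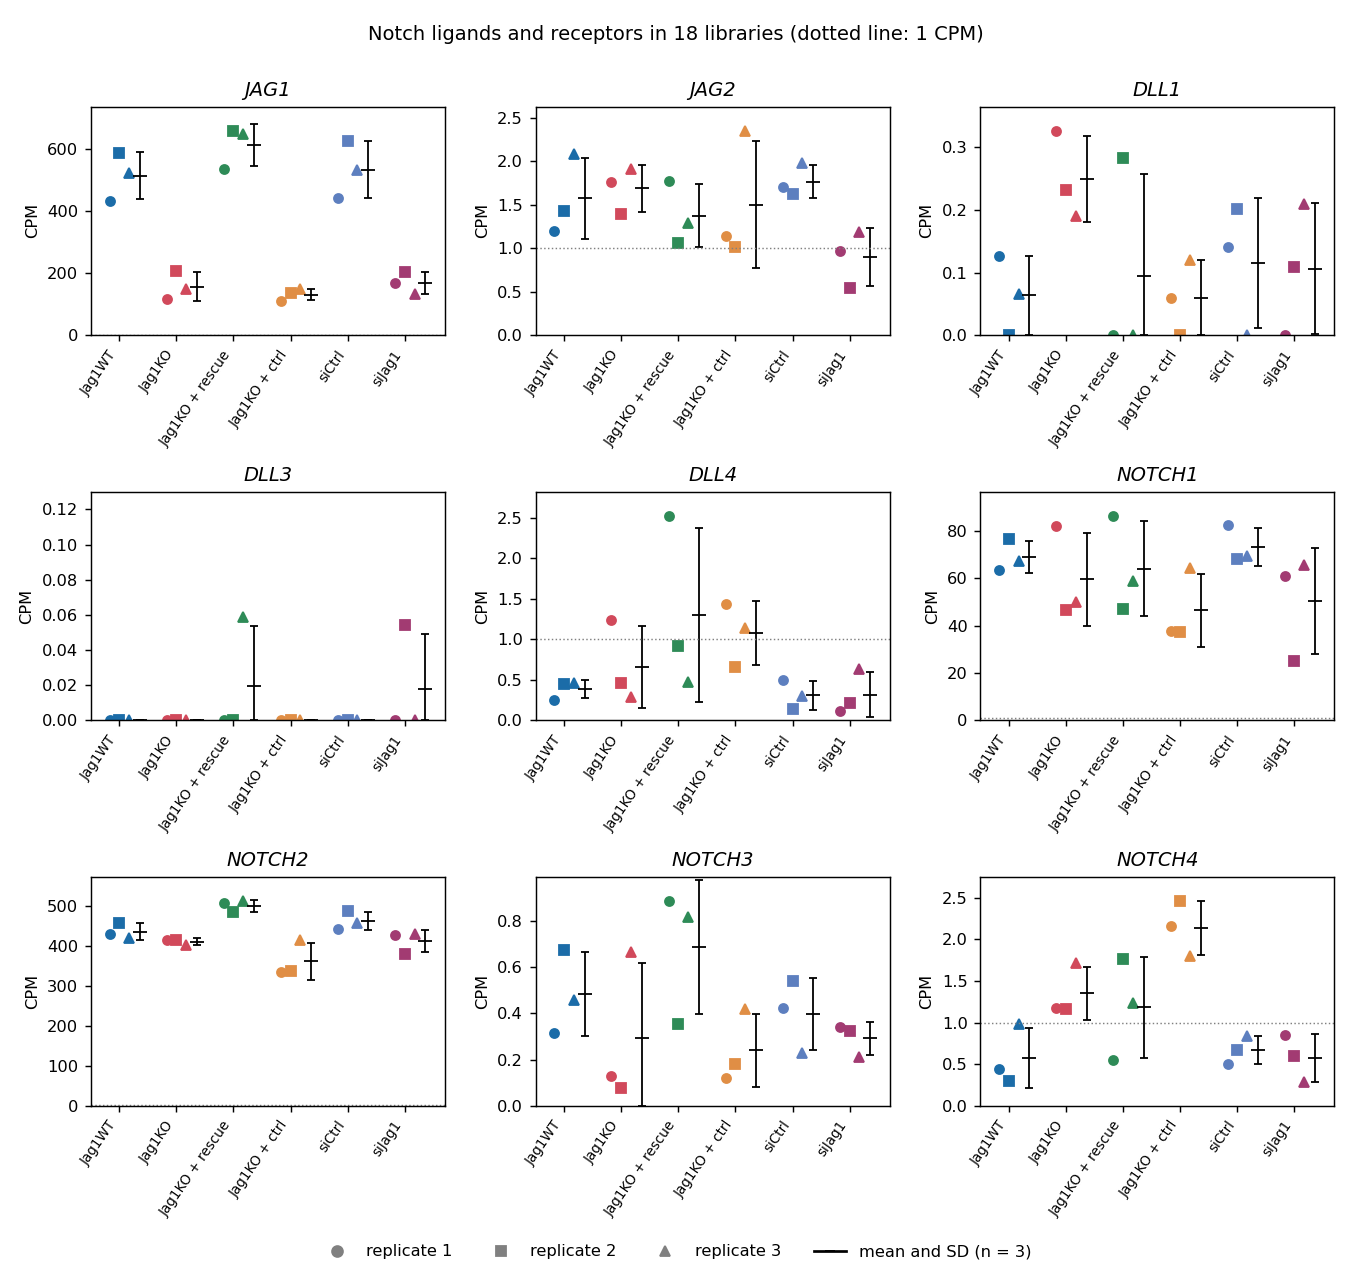
CPM of each ligand and receptor in the 18 libraries by condition, with a panel and a y axis from 0 for each gene. Points are libraries, their shape gives the replicate, and bars give the mean ± SD of 3 libraries, stopping at 0. JAG1 separates the 3 conditions with less of it from the other 3, NOTCH1 and NOTCH2 stay high in all 6, and the other 6 genes stay below 3 CPM.

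JAG1 was lower in every condition meant to lower it, and did not disappear from any. In Jag1WT the libraries had 433, 585 and 522 CPM and in Jag1KO 116, 205 and 149 CPM, or 513 ± 76.7 against 157 ± 45.1 CPM (SD, n = 3). In Jag1KO + rescue they had 534, 657 and 646 CPM and in Jag1KO + ctrl 110.2, 134 and 147 CPM. In siCtrl they had 441, 626 and 531 CPM and in siJag1 166, 203 and 131 CPM. The groups did not overlap in any of these comparisons, and the mean of the lower group was 30.5%, 21.3% and 31.3% of the higher one. Between 1559 and 2654 reads per library were still counted on JAG1 in Jag1KO. Cells that kept JAG1 and edited transcripts that lasted cannot be told apart in these counts. The study's authors report checking the clones for loss of Jagged1 by DNA sequencing and Western blot before mixing them. As for every gene here, fewer cells expressing a gene and less RNA per cell cannot be told apart in bulk RNA.

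The difference in JAG1 passed the test in 2 of the 3 comparisons taken alone. The test was edgeR's quasi-likelihood test over every gene that exceeded 1 CPM in 3 or more of the 6 libraries compared, and a gene was called with a Benjamini-Hochberg adjusted p below 0.05 and a fold change above 1.5. In the 3 comparisons that lowered or restored JAG1, log2 fold changes are of the group with more JAG1 over that with less, and elsewhere of the group named first over the other. JAG1 was higher by a log2 fold change of 1.71 ± 0.22 (SE) in Jag1WT against Jag1KO (edgeR adjusted p = 0.0163), where 0.704% of the genes tested were called. It was higher by 2.22 ± 0.18 in Jag1KO + rescue against Jag1KO + ctrl (edgeR adjusted p = 0.0227), where it was the 1 gene called, or 0.00776% of those tested. In siCtrl against siJag1 the log2 fold change was 1.68 ± 0.19 and missed the threshold (edgeR adjusted p = 0.111), with 0.0156% of the genes called. With the replicate numbers, which paired these libraries, as a block it was 1.69 and passed (edgeR adjusted p = 0.0181).

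The calls of JAG1 depended on single libraries, while its direction did not. Its log2 fold change stayed between 1.53 and 2.32 over the 18 fits of these comparisons that left out 1 library each. The call in Jag1WT against Jag1KO was lost without Jag1WT replicate 1 (adjusted p = 0.0670), 2 (0.0906) or 3 (0.117) or without Jag1KO replicate 3 (0.139), all from edgeR. That in the rescue was lost without any library but Jag1KO + ctrl replicate 3, with edgeR adjusted p from 0.0665 to 0.247, and that of siCtrl against siJag1 was gained without siJag1 replicate 2 (edgeR adjusted p = 0.0167). In a fit of the 3 comparisons together, 9 libraries with more JAG1 against 9 with less, JAG1 was higher by 1.86 ± 0.13 (edgeR adjusted p = 5.87e-07), and 0.445% of the 12803 genes tested were called.

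JAG1 did not differ beyond the spread of the libraries between conditions in which it had not been changed on purpose. Jag1KO + ctrl against Jag1KO gave a log2 fold change of -0.28 (95% interval -0.79 to 0.24) and siCtrl against Jag1WT 0.04 (-0.30 to 0.39). No gene was called in either, or 0% of 13004 and 12847 genes tested with edgeR. At an unadjusted p below 0.05 there were 756 and 177 genes, and DESeq2 called 13 and 0. With the replicate block, since the numbers paired siCtrl and Jag1WT, edgeR called 1 gene there, no member, and 1228 had an unadjusted p below 0.05. Without Jag1KO + ctrl replicate 3, edgeR called 302 genes in Jag1KO + ctrl against Jag1KO, or 2.35%, and 0 members. The 3 reductions of JAG1 differed by less than the test could show. Jag1WT against Jag1KO minus siCtrl against siJag1 gave 0.03 (95% interval -0.66 to 0.72), Jag1WT against Jag1KO minus the rescue -0.49 (-1.12 to 0.13), and the rescue minus siCtrl against siJag1 0.53 (-0.04 to 1.09), with edgeR adjusted p of 0.999, 0.327 and 0.280. In these 3 tests 0.109%, 0.545% and 0.0937% of all genes were called and 0 members, with 1, 1 and 0 members at an unadjusted p below 0.05, where 3.89%, 22.2% and 20% of all genes were. DESeq2 also called 0 members.

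**Figure D2:**
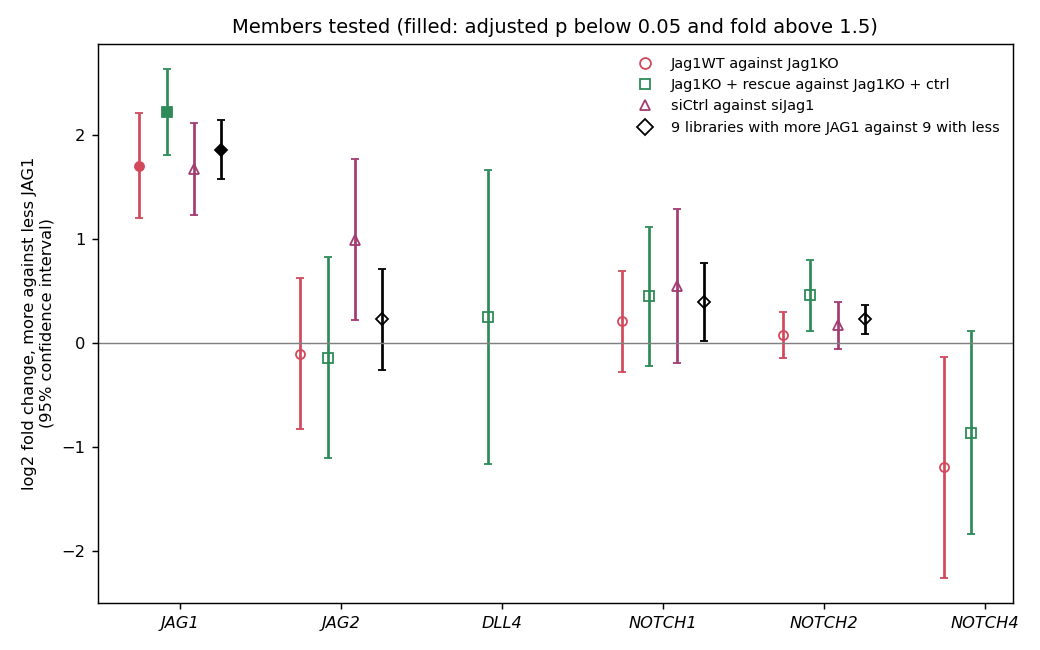
Log2 fold change of each tested member, the group with more JAG1 over that with less, with its 95% confidence interval from edgeR. Shapes give the comparison and filled symbols a call. JAG1 lies between 1.68 and 2.22 in the single comparisons and no symbol of another member is filled, with NOTCH4 alone below -0.5.

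JAG2, the other Jagged ligand, was a low-abundance transcript, with 10 to 39 reads per library. Jag1WT had 1.20, 1.43 and 2.09 CPM of it and Jag1KO 1.76, 1.39 and 1.91 CPM. Jag1KO + rescue had 1.77, 1.06 and 1.29 CPM and Jag1KO + ctrl 1.14, 1.02 and 2.35 CPM. Both pairs of groups overlapped, and the log2 fold changes were -0.10 (95% interval -0.83 to 0.63) and -0.14 (-1.10 to 0.83). In siCtrl the values were 1.70, 1.62 and 1.98 CPM and in siJag1 0.964, 0.541 and 1.19 CPM. Here the groups did not overlap and JAG2 was lower with JAG1, not higher, with a log2 fold change of 1.00 ± 0.33 that did not pass over all genes (edgeR adjusted p = 0.969). Its difference from the knockout was -1.09 (edgeR adjusted p = 0.999). JAG2 was not called with the replicate block either, and it passed the filter on low values through siCtrl. siJag1 replicate 2, which had the lowest JAG2, also had the highest mean of the cell cycle genes among the siRNA libraries (6.07, against 4.18 to 5.10 in the other 5), and without it the log2 fold change was 0.73. The part of these genes in the JAG2 difference was not tested.

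The Delta-like ligands were near the limit of detection. DLL4, known best from sprouting blood vessels, had 2 to 37 reads per library. It reached 1.24 CPM in Jag1KO replicate 1, 2.52 CPM in Jag1KO + rescue replicate 1 and 1.44 and 1.14 CPM in Jag1KO + ctrl replicates 1 and 3, and was below 1 CPM in the other 14 libraries. The medians were 0.451 CPM in Jag1WT, 0.463 in Jag1KO, 0.919 in Jag1KO + rescue, 1.14 in Jag1KO + ctrl, 0.304 in siCtrl and 0.216 in siJag1. It passed the filter on low values in the rescue comparison, with a log2 fold change of 0.25 (95% interval -1.16 to 1.66), and in Jag1KO + ctrl against Jag1KO, with 0.62 (-0.69 to 1.93). DLL1, a ligand of developing tissues, had 0 to 5 reads per library and 30 in all, with 0 reads in 6 libraries, each of which allows up to 3 reads or at most 0.228 CPM. Its 3 Jag1KO libraries had 5, 3 and 2 reads, against 2, 0 and 1 in Jag1WT and 1, 0 and 2 in Jag1KO + ctrl. DLL3, which acts inside the cell and dampens signaling, had 1 read in each of 2 libraries, Jag1KO + rescue replicate 3 and siJag1 replicate 2, and 0 in the other 16. These limits cover counting error only.

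Set side by side per kb, the other ligands did not come near the JAG1 that was lost. Their sum was 0.396 ± 0.101 CPM per kb in Jag1WT and 0.537 ± 0.172 in Jag1KO (SD, n = 3), while JAG1 itself was lower by 59.6 CPM per kb. The gain of 0.141 CPM per kb corresponded to 0.236% of the loss of JAG1 RNA, and the whole JAG1 level of Jag1WT was 85.8 CPM per kb. In Jag1KO + ctrl the sum was 0.586 ± 0.201 CPM per kb against 0.645 ± 0.349 in Jag1KO + rescue, and in siJag1 0.278 ± 0.134 against 0.418 ± 0.0535 in siCtrl, so that in both the group with less JAG1 had the lower mean. The libraries of the 2 groups overlapped in each comparison. JAG1 made up 99.4% to 99.7% of the summed ligand level in the Jag1WT and siCtrl libraries, 96.3% to 98.8% in Jag1KO, 96.7% to 98.4% in Jag1KO + ctrl and 98.1% to 99.4% in siJag1. The sums hold RNA levels, and no protein was measured in these files. In Jag1KO and Jag1KO + ctrl the JAG1 counted is RNA from edited cells, so its share there is not a share of working ligand.

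**Figure D3:**
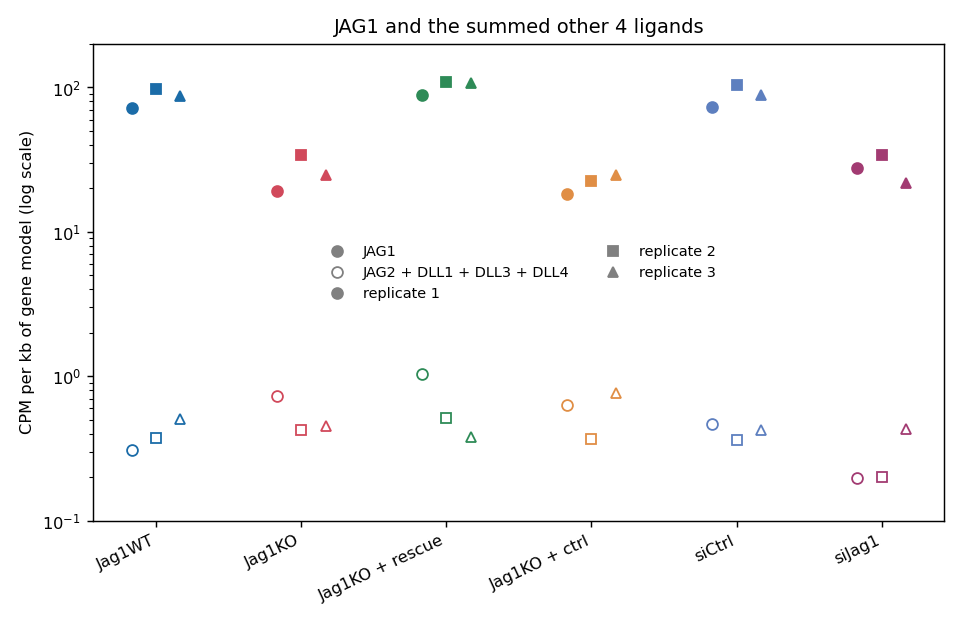
JAG1 (filled) and the sum of JAG2, DLL1, DLL3 and DLL4 (open) in CPM per kb of gene model, on a log axis, 1 symbol of each kind per library. JAG1 lies between 18.4 and 109.7 CPM per kb and the other ligands between 0.198 and 1.04, with no rise where JAG1 was low that reached the JAG1 level.

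NOTCH2 was the most abundant receptor, at 334 to 510.3 CPM. Per kb it made up 78.8% to 91.6% of the summed receptor level over the 18 libraries, and NOTCH1 8.02% to 20.8%. Jag1WT had 429, 458 and 418 CPM and Jag1KO 415, 415 and 401 CPM, a log2 fold change of 0.08 (95% interval -0.14 to 0.30, edgeR adjusted p = 0.854). Jag1KO + rescue had 506, 483 and 510.3 CPM and Jag1KO + ctrl 334, 336 and 414 CPM. siCtrl had 441, 486 and 457 CPM and siJag1 427, 379 and 429 CPM. The groups did not overlap in any of the 3 comparisons, where 13.8%, 32.4% and 10.5% of all genes tested did not. NOTCH2 was on the side with more JAG1 each time. The nearest libraries of Jag1WT and Jag1KO had 418 and 415 CPM. In the rescue the log2 fold change was 0.46 ± 0.15 (edgeR adjusted p = 0.112), which passed 0.05 with DESeq2 (adjusted p = 0.0364) and in an edgeR fit of all 18 libraries (adjusted p = 0.00705), at a fold under 1.5 in both. In siCtrl against siJag1 it was 0.17 ± 0.10 (edgeR adjusted p = 0.969), and over the 3 comparisons together 0.23 ± 0.07 (edgeR adjusted p = 0.111). Uniquely mapped reads were counted, and the near-identical copies NOTCH2NLA, NOTCH2NLB and NOTCH2NLR had means of 12.5, 22.5 and 9.11 CPM, so a part of the reads of their shared stretch may have been left out or split.

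NOTCH1, which T cell and breast cancers can carry in an activated form, was expressed throughout but spread widely between replicates. Jag1WT had 63.4, 76.5 and 67.4 CPM and Jag1KO 82.1, 46.4 and 50.2 CPM. Jag1KO + rescue had 86.2, 47.2 and 58.7 CPM and Jag1KO + ctrl 37.7, 37.5 and 64.3 CPM. siCtrl had 82.6, 68.1 and 69.3 CPM and siJag1 61.2, 24.9 and 65.7 CPM. Only the siRNA groups did not overlap. The log2 fold changes were 0.21 ± 0.21, 0.45 ± 0.29 and 0.55 ± 0.32, all on the side of more JAG1, with edgeR adjusted p of 0.819, 0.301 and 0.969. Together the 3 comparisons gave 0.40 ± 0.18 (edgeR adjusted p = 0.216). Without Jag1KO + ctrl replicate 3 the rescue comparison gave 0.76 and called NOTCH1 (edgeR adjusted p = 0.0496) among 28.7% of all genes called in that fit, and without siJag1 replicate 2 the siRNA comparison gave 0.22.

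NOTCH1 and the cell cycle genes were compared library by library. In 4 of the 6 conditions the library with the highest mean of these genes had the lowest NOTCH1, and in 4 the library with the lowest mean had the highest NOTCH1. In Jag1WT the library with the highest mean had the highest NOTCH1. The same tallies were 3 and 2 for NOTCH2, 4 and 3 for JAG2, 3 and 4 for DLL4, 1 and 2 for NOTCH4 and 0 and 1 for JAG1. They were not made over all genes. The 5 libraries with a cell cycle mean above 5.5 had 24.9 to 50.2 CPM of NOTCH1, and all 5 belonged to conditions with less JAG1, while the other 13 had 47.2 to 86.2 CPM. For NOTCH2 the same 5 libraries had 334 to 415 CPM and the other 13 had 414 to 510.3 CPM. The part of the cell cycle genes in the receptor differences was not tested.

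**Figure D4:**
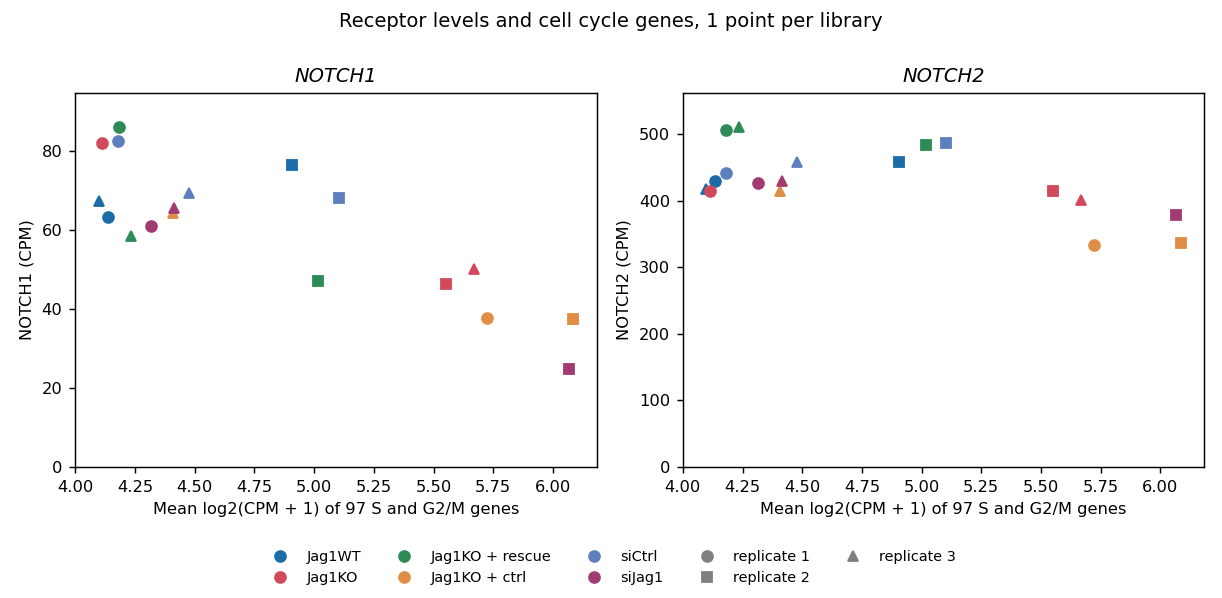
CPM of NOTCH1 and of NOTCH2 (y axes from 0) against the mean log2(CPM + 1) of 97 S and G2/M genes, 1 point per library, with colors for conditions and shapes for replicates. The 5 libraries above 5.5 on the x axis lie at 24.9 to 50.2 CPM of NOTCH1 and 334 to 415 CPM of NOTCH2.

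NOTCH3, a receptor of smooth muscle and some epithelial tumors, had 1 to 14 reads per library and was below 1 CPM in all 18. Jag1KO + rescue had 0.886, 0.353 and 0.821 CPM and Jag1KO + ctrl 0.120, 0.180 and 0.421 CPM, which overlapped. It passed the filter on low values in no comparison. With no filter, the rescue comparison gave a log2 fold change of 1.51 (edgeR adjusted p = 0.179), Jag1WT against Jag1KO 0.82 (0.797) and siCtrl against siJag1 0.43 (0.925).

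NOTCH4, an endothelial receptor, was the 1 member whose libraries with less JAG1 all lay above those with more in both knockout comparisons. Jag1WT had 0.442, 0.301 and 0.978 CPM, or 7, 4 and 15 reads, and Jag1KO 1.17, 1.16 and 1.72 CPM, or 18, 15 and 18 reads. Jag1KO + rescue had 0.545, 1.77 and 1.23 CPM and Jag1KO + ctrl 2.16, 2.46 and 1.81 CPM. siCtrl had 0.495, 0.674 and 0.837 CPM and siJag1 0.850, 0.595 and 0.280 CPM. The nearest libraries of the rescue comparison were Jag1KO + rescue replicate 2 (1.767 CPM, 25 reads) and Jag1KO + ctrl replicate 3 (1.805 CPM, 30 reads). There 1 read was worth 0.0707 and 0.0602 CPM. Both knockout comparisons separated their groups, where 13.8% and 32.4% of all genes tested were separated, and the siRNA groups overlapped. The log2 fold changes were -1.19 ± 0.46 (edgeR adjusted p = 0.481) and -0.86 ± 0.42 (edgeR adjusted p = 0.200), and neither passed. In Jag1WT against Jag1KO the gene entered the test only through Jag1KO, and in siCtrl against siJag1 it did not enter; with no filter the siRNA comparison gave 0.19 (edgeR adjusted p = 0.976). Jag1KO + ctrl was above Jag1KO as well, by 0.66 (95% interval -0.06 to 1.38), with JAG1 low in both, and the libraries did not overlap.

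NOTCH4 at chr6:32194843-32224067 shares exon bases with GPSM3 on the same strand in GENCODE 44, and how reads in shared bases were assigned is not given in the sources used here. GPSM3, a regulator of G proteins, had 52.0 ± 8.97 CPM in Jag1WT, 66.9 ± 18.7 in Jag1KO, 58.7 ± 25.1 in Jag1KO + rescue, 80.6 ± 1.58 in Jag1KO + ctrl, 50.7 ± 14.5 in siCtrl and 49.1 ± 2.18 in siJag1 (SD, n = 3). Over the 18 libraries its log2(CPM + 1) correlated with that of NOTCH4 (Pearson's r = 0.734, Spearman's rho = 0.690, a description over libraries of 6 conditions). The part of GPSM3 reads in the NOTCH4 values was not tested. DLL1 at chr6:170282206-170306565 shares exon bases with FAM120B on the opposite strand, and the setting for strand in the counting is not given in the sources used here. JAG2 shares exon bases with 1 gene without a symbol on the same strand and JAG1 with 1 on the opposite strand. The other members lie at chr14:105140982-105168824 (JAG2), chr15:40929340-40939073 (DLL4), chr19:39498895-39508481 (DLL3), chr9:136494433-136546048 (NOTCH1), chr1:119911553-120100779 (NOTCH2) and chr19:15159038-15200995 (NOTCH3).

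Counted over the members, no ligand or receptor other than JAG1 was called in any comparison of conditions. In Jag1WT against Jag1KO 1 of 5 tested members was called, in the rescue 1 of 6, and in siCtrl against siJag1 0 of 4, or 1 of 4 with the replicate block. At an unadjusted edgeR p below 0.05, siCtrl against siJag1 had 3 members with the block and 2 without it. Of all genes tested there, 7.99% and 3.83% were below it. By groups that did not overlap, Jag1WT against Jag1KO separated 3 of 5 members, JAG1 and NOTCH2 upward and NOTCH4 downward, where 13.8% of all genes tested were separated. The rescue separated the same 3 of 6 against 32.4% of all genes, and siCtrl against siJag1 all 4 tested, JAG1, JAG2, NOTCH1 and NOTCH2, upward, against 10.5%. Jag1KO + ctrl against Jag1KO separated 1 of 6 (NOTCH4) against 10.1%, and siCtrl against Jag1WT 0 of 4 against 6.3%. NOTCH4 in Jag1WT against Jag1KO and JAG2 in siCtrl against siJag1 had passed the filter through their higher groups and are no support in these counts. JAG1 was the gene changed on purpose, and its separation is no support either.

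Much of the machinery that the ligands and receptors need was expressed. All 8 genes of the nuclear complex were expressed in 6 of 6 conditions, with RBPJ at 294 to 456 CPM. Of the ubiquitin ligases that ready ligands for signaling, MIB1 (54.9 to 89.9 CPM) and MIB2 were expressed throughout, and NEURL1 and NEURL2 in no condition. Of the Fringe enzymes, which add sugars that shift a receptor between Delta-like and Jagged ligands, RFNG had 14.2 to 26.2 CPM, LFNG 2.04 to 8.29 and MFNG at most 0.341. Among the noncanonical ligands DNER (6.68 to 20.5 CPM), MFAP2 (2.70 to 16.6) and EGFL7 (2.52 to 7.42) were expressed in all 6 conditions. CNTN1, a contactin of neural tissue, was expressed in 2, Jag1KO and Jag1KO + ctrl. It had 0.584 ± 0.240 CPM in Jag1WT and 1.38 ± 0.804 in Jag1KO, 0.455 ± 0.159 in Jag1KO + rescue and 2.00 ± 0.814 in Jag1KO + ctrl, and 0.450 ± 0.0932 in siCtrl and 1.30 ± 1.04 in siJag1 (SD, n = 3), from 4 to 46 reads per library. The mean was higher with less JAG1 each time. The rescue groups did not overlap, where 32.4% of all genes tested did not. The siRNA groups did not overlap either, but CNTN1 was not among the genes tested there. Of the noncanonical ligands tested, 3 of 4, 2 of 5 and 4 of 4 were higher with more JAG1 in Jag1WT against Jag1KO, the rescue and siCtrl against siJag1. CNTN1 was picked after its values were seen, and the separations of its groups are no support. It passed the filter on low values only in the rescue among these comparisons, through Jag1KO + ctrl, its higher group. The log2 fold change was -2.12 ± 0.47 and was not called (edgeR adjusted p = 0.104). Its levels above 1.5 CPM were in the 5 libraries with a cell cycle mean above 5.5, and the part of the cell cycle genes was not tested. DLK1, MFAP5, NOTCH2NL and NOTCH2NLC were not among the genes analysed here.

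Of the 66 genes on the pathway lists, 49, 51 and 49 were tested in Jag1WT against Jag1KO, the rescue and siCtrl against siJag1, and 0 were called in each with edgeR, with 4, 16 and 7 at an unadjusted p below 0.05, where 8.82%, 30.8% and 3.83% of all genes were. Their median log2 fold changes were 0.09, 0.13 and 0.06, where the median of all genes tested was -0.01, -0.00 and -0.01. In the fit of the 3 comparisons together 1 of 49 was called, HES1, and the medians by list ran from -0.11 for the 5 glycosylation genes tested to 0.59 for the 4 targets. TLE1, a corepressor that binds HES proteins, was below an adjusted p of 0.05 at a fold under 1.5 (log2 fold change 0.35 ± 0.08, edgeR adjusted p = 0.0473). LFNG had -0.57 ± 0.19 (edgeR adjusted p = 0.150) and MFAP2 0.90 ± 0.25 (edgeR adjusted p = 0.111), and neither passed.

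HES1, the best known transcriptional target of the pathway and a repressor of differentiation genes, was higher where JAG1 was higher and was called over the 3 comparisons together. Jag1WT had 13.4, 11.2 and 22.3 CPM and Jag1KO 3.72, 0.927 and 1.05 CPM. Jag1KO + rescue had 22.4, 4.88 and 9.97 CPM and Jag1KO + ctrl 0.659, 0.240 and 1.74 CPM. siCtrl had 12.7, 13.2 and 13.9 CPM and siJag1 5.50, 3.30 and 4.48 CPM. The groups did not overlap in any of the 3, where 13.8%, 32.4% and 10.5% of all genes tested did not. The log2 fold changes were 2.99 ± 0.51, 3.79 ± 0.75 and 1.60 ± 0.21, with edgeR adjusted p of 0.0532, 0.104 and 0.125, which each missed the threshold. In the rescue HES1 passed the filter on low values through Jag1KO + rescue, its higher group, so its separation there is no support. Together the 3 comparisons gave 2.70 ± 0.40 (edgeR adjusted p = 0.00232), which was called. With the replicate block, siCtrl against siJag1 gave 1.61 (edgeR adjusted p = 0.113). The 5 libraries with a cell cycle mean above 5.5, all from conditions with less JAG1, had 0.240 to 3.30 CPM of HES1. The other libraries with less JAG1 had 1.74 to 5.50 CPM. The part of the cell cycle genes in the HES1 difference was not tested. The other targets tested together, HES4 (0.63 ± 0.23, edgeR adjusted p = 0.168), HES7 (0.56 ± 0.32, 0.297) and HEY1 (0.31 ± 0.17, 0.274), did not pass.

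**Figure D5:**
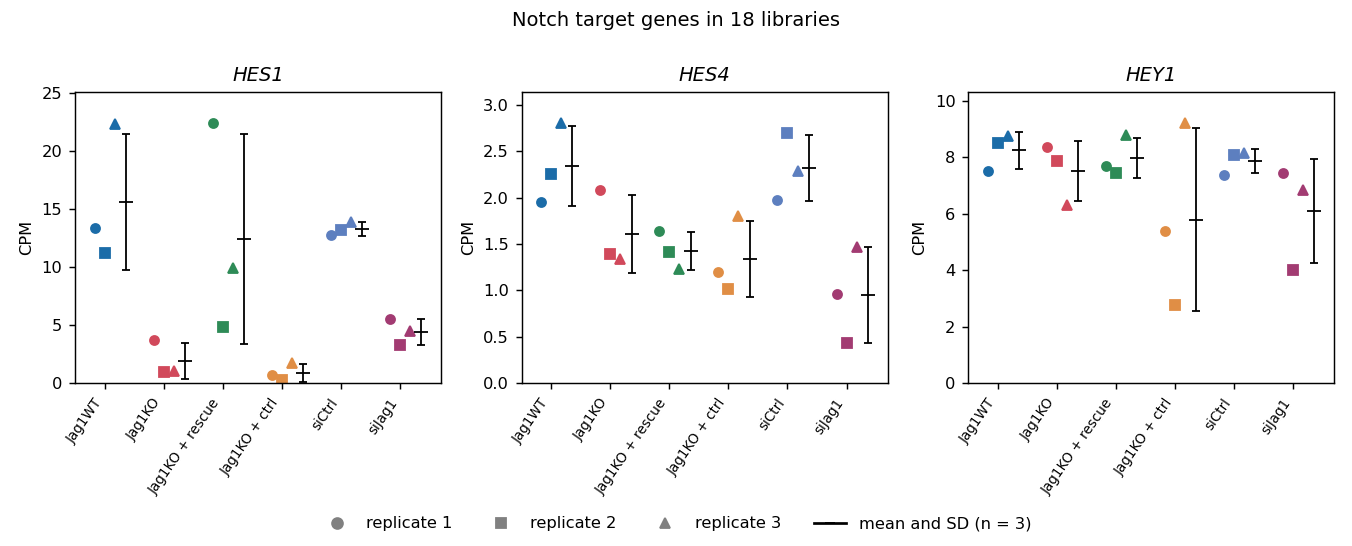
CPM of the Notch target genes HES1, HES4 and HEY1 in the 18 libraries by condition, y axes from 0, with shapes for replicates and bars for the mean ± SD of 3 libraries. HES1 lies at 4.88 to 22.4 CPM in the conditions with more JAG1 and at 0.240 to 5.50 CPM in those with less.

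The HES1 promoter is shown because HES1 was the 1 pathway gene called. Its sequence, from 250 bases before to 50 after the start of the gene at chr3:194135898-194136197 (RefSeq, GRCh38.p14, plus strand), is printed with the core of the RBPJ motif, TGGGAA, in capitals.
HES1 promoter: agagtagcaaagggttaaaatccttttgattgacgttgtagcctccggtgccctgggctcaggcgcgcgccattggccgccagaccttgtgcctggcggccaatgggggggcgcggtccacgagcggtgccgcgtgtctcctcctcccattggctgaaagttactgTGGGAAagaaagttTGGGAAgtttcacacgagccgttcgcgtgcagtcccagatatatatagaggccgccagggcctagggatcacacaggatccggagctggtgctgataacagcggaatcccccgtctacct
The 6 letters stood there 2 times on the printed strand and 0 times on the other. Of the members, 7 had a promoter in the RefSeq table (JAG1, JAG2, DLL4 and the 4 receptors), and 0 of the 7 held TGGGAA on either strand, while 24.0% of all 35116 promoters in the table did. CpG sites numbered 5 in the NOTCH4 window and 24 to 46 in those of the other 6, where the median of all promoters was 14. A match is a description of the letters and no match says only that they are not in this window.

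The genes whose levels were most like each expressed member over the 18 libraries are given as a description, since the libraries share conditions and depth. For JAG1 they were LITAF (Pearson's r = 0.954, Spearman's rho = 0.901), SERPINB9 (0.948 and 0.880) and SPHK1 (0.869 and 0.773). NOTCH1 was most like CEP170B (0.976 and 0.961), TWF2 (0.956 and 0.893) and PKD1 (0.955 and 0.880). NOTCH2 was most like CALCOCO2 (0.957 and 0.905), MED13L (0.951 and 0.948) and RAP1B (0.951 and 0.917). For the low members the nearest were SREBF1, HSF1 and DOCK6 for JAG2 (r = 0.896, 0.874 and 0.858) and GYS1, CHRNA1 and MAML2 for NOTCH4 (r = 0.913, 0.905 and 0.893).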

How the data were processed

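Poly(A) RNA of 18 libraries was sequenced from stranded mRNA libraries. The authors aligned the reads to hg38 (the aligner is not given in the sources used here) and counted uniquely mapped reads per gene. The submitters' processing notes name featureCounts, MultiQC 1.5, R 3.6.1 and edgeR 3.28.0. The deposited counts are whole and not normalized, 10330581 to 18327890 per library. The deposited CPM, treated as a signal because their sums vary with TMM scaling, equal count over TMM-scaled library size. The deposited RPKM served only for gene lengths, and 3 RPKM columns (siJaq1) matched no label and were not used. The 292 genes without a symbol held at most 0.0442% of counts.

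The test was edgeR 4.0.16 (quasi-likelihood, TMM, R 4.3.3) on the counts, for genes above 1 deposited CPM in at least 3 of 6, 6 of 12 or 9 of 18 libraries fitted, with Benjamini-Hochberg adjustment over all genes tested. The thresholds (0.05 and 1.5-fold) are those of the study. Its statistic, ROTS, was not run. Alternatives were DESeq2 1.42.0, limma 3.58.1 on log2(CPM + 1) or log2(CPM + 0.1), other size factors, no filter, a replicate block, 1 fit of 18 libraries, and leaving out each library. The fits were tested on simulated data in which only well-expressed genes were changed and the spread between replicates was fixed. That test does not cover the members with few reads or the spread of these libraries. Replicate numbers were taken to pair libraries where the deviations from group means of same-numbered libraries correlated above 0.1 in all 3 pairs. This held for siCtrl and siJag1 (0.542, 0.522 and 0.263) and for siCtrl and Jag1WT (0.594, 0.711 and 0.209).

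The text names all 9 members, called genes of fixed pathway lists, and for each member above a mean of 1 CPM the 3 genes of highest Pearson correlation. CNTN1, LFNG, MFAP2, TLE1, GPSM3 and the levels of expressed pathway genes were added after their values were seen. Members and lists were chosen with earlier results of these data known.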

Additional observations from a re-analysis of the deposited data

How the results depend on the processing

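JAG1 was on the side of more JAG1 in every fit of the 3 comparisons and of the 9 against 9 libraries, under each alternative run. No alternative other than leaving out a library turned the direction of a member or of HES1. In siCtrl against siJag1 the count of members called, 0, became 1 (JAG1) with no filter on low values, with DESeq2, with the replicate block and in 1 fit of all 18 libraries, and stayed 0 with limma (adjusted p of JAG1 0.0792 and 0.0799). In the other comparisons the replicate block changed no member's call, with JAG1 the 1 member called in Jag1WT against Jag1KO and in the rescue. By the rule used, the replicate numbers did not pair in the 3 comparisons with Jag1KO or its plasmid lines. Same-numbered libraries correlated at -0.0136 in 1 pair of Jag1WT and Jag1KO, but at 0.632 and 0.667 in the other pairs. In the rescue 1 pair correlated at -0.208 and the others at 0.345 and 0.241. In Jag1KO + ctrl and Jag1KO 2 pairs correlated at -0.356 and -0.608 and the other at 0.279. Leaving out 1 library gave 0 to 1 members called in Jag1WT against Jag1KO, 0 to 2 in the rescue and 0 to 1 in siCtrl against siJag1. It also turned some directions, over ranges of the log2 fold change of -0.37 to 0.073 for JAG2 in Jag1WT against Jag1KO, -0.35 to 0.34 for JAG2 and -0.0072 to 0.67 for DLL4 in the rescue, and -0.65 to 0.037 for JAG2 in Jag1KO + ctrl against Jag1KO. In siCtrl against Jag1WT the ranges were -0.020 to 0.43 for JAG2, -0.091 to 0.16 for JAG1, -0.016 to 0.16 for NOTCH1 and -0.43 to 0.11 for HES1. The cause was not tested. HES1 stayed called in the 9 against 9 libraries under every alternative. It was also called in Jag1WT against Jag1KO with DESeq2, limma, no filter, the replicate block and 1 fit of all libraries (adjusted p from 1.91e-07 to 0.0382), in the rescue with DESeq2 and 1 fit of all libraries, and in siCtrl against siJag1 with DESeq2 and no filter. Over all genes, calls in the rescue were 1 with edgeR and 574 higher and 998 lower with DESeq2, and 1779 higher and 1880 lower with edgeR without Jag1KO + ctrl replicate 3. In Jag1WT against Jag1KO they were 53 higher and 38 lower, against 116 and 119 with DESeq2 and 145 and 138 with the replicate block in edgeR. With 0 to 41 reads per library, DLL1, DLL3, DLL4, JAG2, NOTCH3 and NOTCH4 are limited by depth.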
